A study of Mus musculus with 9 samples.

Results

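The 32 genes described here encode the machinery by which newly made secretory and membrane proteins enter the endoplasmic reticulum (ER) and are first processed there. They were chosen by symbol, complex by complex, from the 25860 genes of the count table; each matched 1 row, and all 32 passed the filter on low counts that left 13712 genes for testing. Polyadenylated RNA was sequenced from Osx1-Cre cells of the calvaria (the skull cap) of newborn mice, in 5 libraries with the genotype IRE1KO and 4 with the genotype WT. Each library came from a pool of 3 to 5 pups aged 2 to 4 days, whose cells were sorted by flow cytometry, grown in medium with 10% serum and lysed at 90% confluence. Both groups are described as Osx1-Cre cells. Osx1-Cre drives Cre recombinase from the osterix (Sp7) promoter, which is active in the osteoblast lineage, and the targeted Ern1 allele is not given in the sources used here. Ern1, which encodes IRE1, was not lower in the libraries labelled IRE1KO, at 49.8 to 55.8 CPM (reads per 1000000 counted reads, after scaling) against 41.5 to 54.2 CPM in WT. A total count per gene cannot show whether exons are missing, so this does not check the label.

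In the co-translational route, the signal recognition particle (SRP) binds the signal sequence as it leaves the ribosome and docks at the SRP receptor, and the chain is passed to the Sec61 channel. Sec62 and Sec63, TRAM, RAMP4 and the translocon-associated protein (TRAP) complex assist the channel, signal peptidase removes the signal sequence, and oligosaccharyltransferase (OST) transfers a preassembled glycan to asparagine residues. Cells that secrete collagen, such as osteoblasts, rely on this route. IRE1 splices Xbp1 mRNA during ER stress, and the XBP1s factor made from the spliced form is known as an activator of many of these genes in secretory cells.

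None of the 32 genes was called as changed between IRE1KO and WT, against 0.634% of all tested genes; a gene was called where its p from the quasi-likelihood test of edgeR, adjusted over all tested genes by Benjamini and Hochberg's method, was under 0.05. DESeq2 called 1 of the 32, where it called 4.14% of all tested genes. With limma voom 0 of the 32 were called, where it called only 16 genes among all tested. The measured differences were small. Log2 fold changes of IRE1KO over WT ran from -0.093 for Ddost to 0.25 for Sec61g, with a median of 0.062 against -0.0050 over all tested genes. The 95% interval lay within 1.5-fold in both directions for all 32 genes, against 74.8% of all tested genes; that of Sec61g ended just inside this bound and crossed it in some alternative fits. For 31 of the 32 it lay within 1.2-fold, as it did for 43.4% of all tested genes and for 63.5% of those at a similar level (21.6 to 481 CPM). Tram1 and Ssr2 ended close to that narrower bound. The count ran from 24 (with the replicate block, a fit with an added term for replicate number) to 31 over the alternative fits. Summed over the 32 genes, the level was 5265 ± 109.8 CPM in IRE1KO (SD, n = 5) and 5125 ± 122 CPM in WT (SD, n = 4).

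Small as they were, 27 of the 32 fold changes were above 0, against 48.4% of all tested genes and 54.4% of those at a similar level (21.6 to 481 CPM). The median log2 fold change of the genes at a similar level was 0.011. Scaled by total counts alone, 23 of 32 were above 0, against 41.6% of all tested genes. The 5 below 0 were Sec11c and Spcs3 of signal peptidase and Stt3b, Rpn2 and Ddost of OST. An unadjusted p under 0.05 was reached by 3 of the 32 genes, against 16.5% of all tested genes. Leaving out 1 library moved the log2 fold change by over 1.5 times for 26 of the 32 genes, the exceptions being Serp1, Ssr3, Sec61g, Stt3b, Rpn1 and Dad1. The 3 genes with an unadjusted p under 0.05 were Serp1, Dad1 and Ssr3, and they were also the 3 genes whose IRE1KO libraries all lay above all WT libraries; such an order held for 3.65% of all tested genes, the reverse order for 3.28% and either order for 6.93%.

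**Figure D1:**
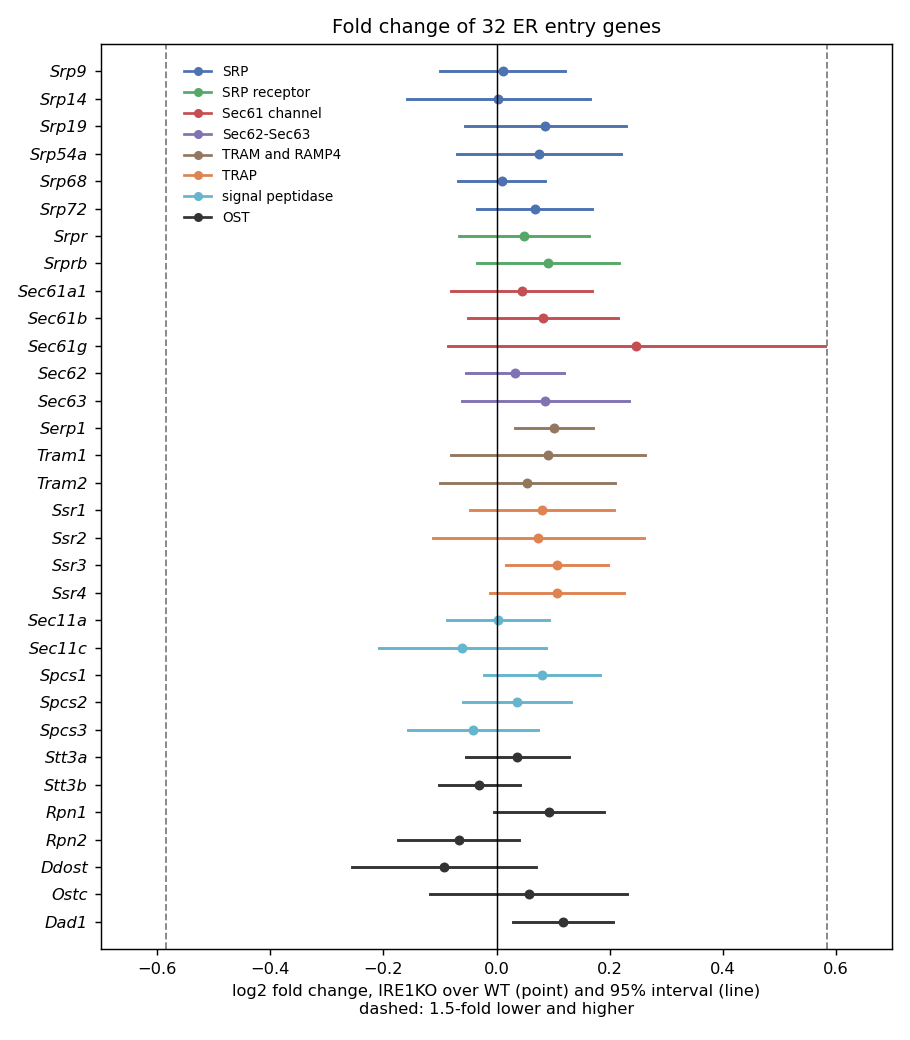
Log2 fold change of IRE1KO over WT (x axis) for each of the 32 genes (y axis), coloured by complex, with the point at the edgeR estimate and the line at its 95% interval. All 32 intervals lie between the dashed lines at 1.5-fold lower and higher, and Sec61g has by far the widest.

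Total counts ran from 18784636 to 22028075 per library. WT libraries differed among themselves more than IRE1KO libraries did, for genes in general: the median SD of the log2 level was 0.167 in WT and 0.0778 in IRE1KO over all tested genes, and 0.0900 and 0.0531 over the 32. With WT library 4 left out, the WT median was 0.120 over all tested genes and 0.0519 over the 32. WT library 4 stood apart on the first principal component, which held 49.2% of the variance, at 50.4 against -21.6 to 12.6 for the other 8. It lay outside the range of the other 3 WT libraries for 84.4% of the 32 genes (above for 15, below for 12) and for 75.6% of all tested genes. Among marker lists, the sum of 7 osteoblast lineage genes was 36055 to 40192 CPM in IRE1KO and 25555 to 52749 CPM in WT, nearly all of it collagen. Of the other genes of that list, Runx2 was at 59.8 to 75.1, Sp7 at 13.6 to 24.6 and Alpl at 14.2 to 25.7 CPM over all libraries, while the late markers Ibsp and Bglap were at 0.0971 to 3.92 and 0 to 0.192 CPM. Sums of 6 adipocyte genes were 43.5 to 53.5 CPM in IRE1KO and 70.5 to 115 CPM in WT, and those of 7 glial genes 11.5 to 17.1 and 19.5 to 73.9 CPM. Of the tested genes of these lists, 3 of 4 and 1 of 5 were called. The groups overlapped for macrophage and osteoclast genes (290.3 to 441 CPM in IRE1KO, 188 to 403 CPM in WT), chondrocyte genes (708 to 1399.9 CPM in IRE1KO, 1355 to 1424 CPM in WT) and endothelial genes (7.44 to 11.2 CPM in IRE1KO, 8.01 to 20.4 CPM in WT), where Pecam1 alone of 4 was called. Of 3 plasma cell genes, Mzb1 and Igj were at or near 0 and Sdc1 was at 96.0 to 126 CPM. The part of these cells in the values below was not tested. In bulk RNA, fewer cells of a type and less RNA per cell cannot be told apart.

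Serp1 encodes RAMP4, a small membrane protein bound to the Sec61 channel and a classical XBP1s target. Its promoter and those of the other genes were searched for the letters of elements that XBP1s and the related stress factor ATF6 are known to bind. The RefSeq promoter table for GRCm38.p6, which gives 250 bases before to 50 after each start, held 24 of the 32 genes by symbol, and not Sec11c, Ostc, Sec61a1, Ssr2, Srp68, Spcs3, Srp19 or Tram1. Srp54a was left out because its identifier differs between annotations, so 23 were searched. Searched on both strands, CCACG was present in 16 of the 23 (69.6%), against 35.5% of all genes in the table and 51.8% of tested genes. The longer CCACGT, which contains it, was present in 6 (26.1%), against 9.39% and 13.1%. TGACGTGG, which contains the reverse complement of CCACGT, was found in none of the 23 and in 1.08% of tested genes. The ER stress response element, CCAAT and CCACG with 9 bases of any kind between them, and its second form, ATTGG and CCACG with 1 base between them, were also found in none, and in 0.185% and 0.0618% of tested genes. A match is a description of these letters, not a bound site, and no match speaks only of this window. The CCACGT matches, in capitals with 12 bases on each side, are shown 5′ to 3′ on the strand of the gene because they include Serp1 and Ssr3, of the 3 genes with separate groups.
Serp1 (chr3:58525911-58525940, minus strand): ctcggggccaatCCACGTctggttcccgag
Srprb (chr9:103202084-103202113, minus strand): tggagcctagagCCACGTaactttggcggc
Sec63 (chr10:42761462-42761491, plus strand): ttgctgcgcgcgCCACGTctccctcagtga
Spcs1 (chr14:31001709-31001738, minus strand): gctctgcagcagCCACGTagggccacaacc
Ssr1 (chr13:37994217-37994246, minus strand): ggcgcttagaggCCACGTcgacggtggcgg
Ssr1 (chr13:37994264-37994293, minus strand): cgccaccgccggCCACGTgatctcccggcc
Ssr3 (chr3:65392726-65392755, minus strand): ggcattgaggcgCCACGTaccctgaaggat
The match began 44 bases before the start of Serp1 and 190 bases before that of Ssr3. Serp1 and Ssr3 had log2 fold changes of 0.10 and 0.11, and the other 4 genes with this match ran from 0.080 for Ssr1 to 0.091 for Srprb, with no gene passing the test. The searched genes without this match ran from -0.093 for Ddost to 0.25 for Sec61g. Dad1, which also had separate groups, was at 0.12 without this match. Whether the match bears on the fold changes was not tested.

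The SRP carries a small domain formed by Srp9 and Srp14, which slows elongation, and a signal-binding part formed by the Srp54 protein with Srp19, Srp68 and Srp72. Log2 fold changes of the 6 genes lay between 0.0033 for Srp14 and 0.086 for Srp19, and were all above 0, though those of Srp9, Srp14 and Srp68 were below 0 when libraries were scaled by total counts alone. Srp68, which lies 9.76 Mb from Ern1 on chromosome 11, had 0.0093 (95% interval -0.068 to 0.086). WT library 4 was the lowest of the WT libraries for Srp9, Srp14, Srp19, Srp54a and Srp72 and the highest for Srp68. Srp72, the most abundant of them in CPM, ranged from 312 to 321 CPM in IRE1KO and from 276 to 314 CPM in WT. The receptor has a soluble GTPase subunit, Srpr, anchored by the membrane subunit Srprb. Srpr was at 185.0, 199.8, 176.2, 183.2 and 181.9 CPM in IRE1KO libraries 1 to 5 and 166.4, 179.3, 179.2 and 191.3 CPM in WT libraries 1 to 4 and overlapped between groups (log2 fold change 0.049 ± 0.051 SE, 95% interval -0.066 to 0.16, adjusted p = 0.663, edgeR). Srprb was at 89.5, 89.2, 81.8, 82.4 and 82.7 CPM in IRE1KO libraries 1 to 5 and 85.8, 83.7, 76.5 and 73.6 CPM in WT libraries 1 to 4. IRE1KO libraries 3, 4 and 5 were within the WT range and IRE1KO libraries 1 and 2 above it (log2 fold change 0.091 ± 0.056 SE, 95% interval -0.034 to 0.22, adjusted p = 0.444, edgeR).

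**Figure D2:**
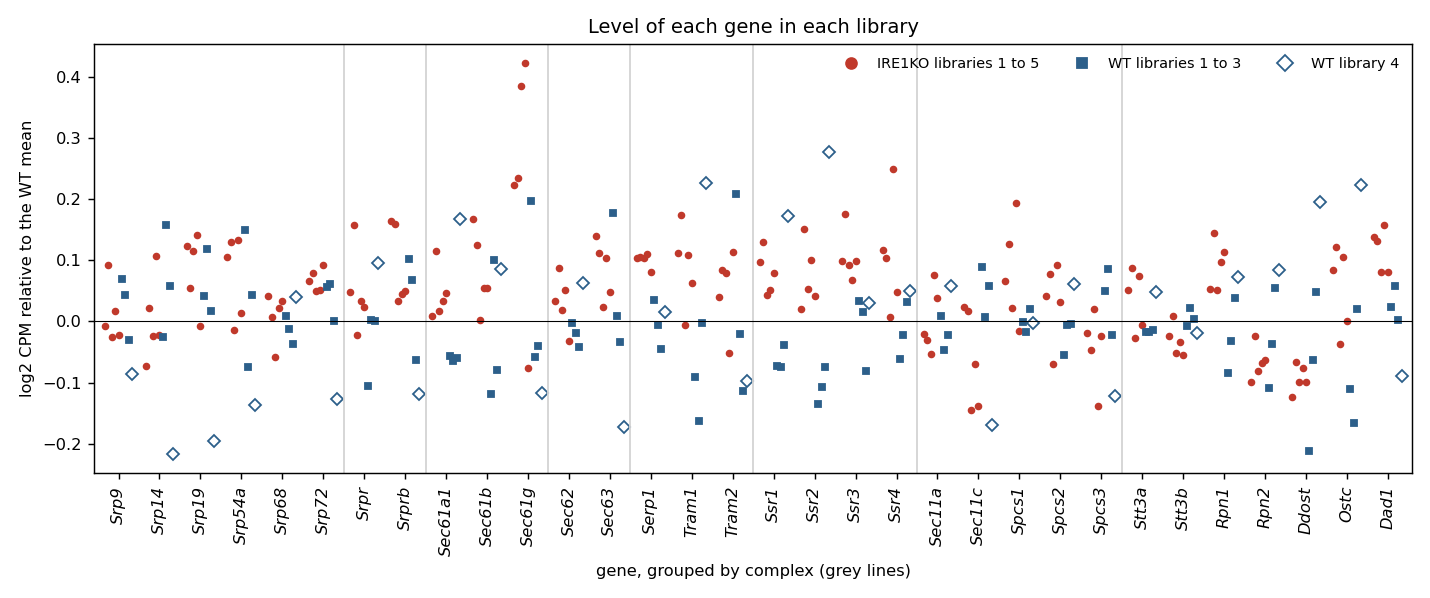
Log2 of each gene's CPM relative to its WT mean (y axis) in each library, for the 32 genes grouped by complex (x axis). Circles are IRE1KO libraries, filled squares WT libraries 1 to 3 and open diamonds WT library 4, which lies outside the other WT libraries for 84.4% of these genes and 75.6% of all tested genes.

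The Sec61 channel consists of an alpha subunit that forms the pore and the small beta and gamma subunits. Sec61a1 was at 226.9, 244.2, 228.0, 230.8 and 232.7 CPM in IRE1KO libraries 1 to 5 and 216.8, 215.5, 216.2 and 253.3 CPM in WT libraries 1 to 4. WT libraries 1 to 3 lay within 2 CPM of one another and below every IRE1KO library, while WT library 4 was above all (log2 fold change 0.045 ± 0.056 SE, 95% interval -0.080 to 0.17, adjusted p = 0.724, edgeR). This value ran from 0.021 (WT library 2 left out) to 0.10 (WT library 4 left out). Sec61b was at 42.3, 41.1, 37.7, 39.1 and 39.1 CPM in IRE1KO libraries 1 to 5 and 34.7, 40.3, 35.6 and 39.9 CPM in WT libraries 1 to 4. The groups overlapped (log2 fold change 0.082 ± 0.059 SE, 95% interval -0.050 to 0.21, adjusted p = 0.517, edgeR). Sec61g was at 2.18, 2.20, 2.44, 2.51 and 1.77 CPM in IRE1KO libraries 1 to 5 and 2.15, 1.80, 1.82 and 1.72 CPM in WT libraries 1 to 4, which rests on 33 to 55 reads per library, and its interval was the widest of the 32 (log2 fold change 0.25 ± 0.15 SE, 95% interval -0.087 to 0.58, adjusted p = 0.434, edgeR). Sec62 and Sec63, which act beside the channel in post-translational entry and in the recruitment of the chaperone BiP, had log2 fold changes of 0.032 (95% interval -0.054 to 0.12) and 0.086 (95% interval -0.062 to 0.23). Sec63 ranged from 292 to 316 CPM in IRE1KO and from 254 to 324 CPM in WT, with WT library 1 the highest and WT library 4 the lowest of all 9.

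Serp1 (ENSMUSG00000027808, chromosome 3, 58519817 to 58525892, GRCm38) had the smallest p among the 32 genes. Its level was 138.1, 138.2, 138.0, 138.7 and 135.7 CPM in IRE1KO libraries 1 to 5 and 131.5, 127.9, 124.4 and 129.8 CPM in WT libraries 1 to 4. Every IRE1KO library was above every WT library, and the IRE1KO libraries differed among themselves by less than 3 CPM. These levels rest on 2598 to 3042 reads per IRE1KO library, and their spread was not tested against counting noise. The difference was 7.25% (log2 fold change 0.10 ± 0.031 SE, 95% interval 0.032 to 0.17, adjusted p = 0.173, edgeR). DESeq2 called it with an adjusted p of 0.0329 at a log2 fold change of 0.10, where 4.14% of all tested genes were called. Over all alternative fits its adjusted p ran from 0.0329 to 0.430.

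Tram1 and Tram2 encode related membrane proteins that neighbour the chain as it enters the channel. Tram1 was at 190.8, 199.3, 176.0, 190.4 and 184.4 CPM in IRE1KO libraries 1 to 5 and 165.8, 157.7, 176.3 and 206.6 CPM in WT libraries 1 to 4. The groups overlapped, with WT library 4 above every other library and WT libraries 1 and 2 below every IRE1KO library (log2 fold change 0.092 ± 0.076 SE, 95% interval -0.080 to 0.26, adjusted p = 0.583, edgeR). Tram2 was at 111.5, 115.1, 114.6, 104.7 and 117.3 CPM in IRE1KO libraries 1 to 5 and 125.3, 106.9, 100.3 and 101.4 CPM in WT libraries 1 to 4. Here WT library 1 was the highest of all, and WT libraries 3 and 4 were the lowest (log2 fold change 0.054 ± 0.069 SE, 95% interval -0.10 to 0.21, adjusted p = 0.729, edgeR). The value ran from 0.039 (WT library 2 left out) to 0.18 (WT library 4 left out) for Tram1 and from 0.019 (WT library 3 left out) to 0.13 (WT library 1 left out) for Tram2.

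The TRAP complex, which binds the channel and helps the entry of chains with weak signal sequences, had the highest median log2 fold change of the groups with at least 4 genes, at 0.094 over Ssr1 to Ssr4. Ssr3 (ENSMUSG00000027828, chromosome 3, 65379655 to 65392623), the gamma subunit, was at 288.3, 304.3, 287.0, 282.3 and 288.4 CPM in IRE1KO libraries 1 to 5 and 275.7, 272.1, 254.6 and 274.8 CPM in WT libraries 1 to 4. All IRE1KO libraries were above all WT libraries (log2 fold change 0.11 ± 0.040 SE, 95% interval 0.017 to 0.20, adjusted p = 0.234, edgeR). Ssr4, the delta subunit, was at 131.7, 130.4, 122.0, 144.4 and 125.5 CPM in IRE1KO libraries 1 to 5 and 116.4, 119.6, 124.1 and 125.6 CPM in WT libraries 1 to 4. IRE1KO libraries 3 and 5 fell within the WT range, so the groups overlapped (log2 fold change 0.11 ± 0.053 SE, 95% interval -0.011 to 0.23, adjusted p = 0.341, edgeR).

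Ssr1 and Ssr2, the alpha and beta subunits, had the same order of libraries as Sec61a1. Ssr1 was at 305.1, 312.0, 293.6, 295.3 and 301.1 CPM in IRE1KO libraries 1 to 5 and 271.1, 270.6, 277.5 and 321.1 CPM in WT libraries 1 to 4. Ssr2 (ENSMUSG00000041355, chromosome 3, 88575876 to 88588419) was at 139.2, 152.5, 142.3, 147.1 and 141.3 CPM in IRE1KO libraries 1 to 5 and 125.0, 127.4, 130.3 and 166.3 CPM in WT libraries 1 to 4. For both, WT libraries 1 to 3 were below every IRE1KO library and WT library 4 was above every one. With all libraries, neither passed (log2 fold change 0.080 ± 0.056 SE, 95% interval -0.046 to 0.21, adjusted p = 0.509, edgeR for Ssr1 and log2 fold change 0.074 ± 0.083 SE, 95% interval -0.11 to 0.26, adjusted p = 0.686, edgeR for Ssr2). Without WT library 4, Ssr2 rose with a log2 fold change of 0.18 (adjusted p = 0.0459, edgeR), and it was the only called gene of the 32 in that fit, where 2.9% of all tested genes were called. Over all alternative fits the adjusted p of Ssr2 ran from 0.0459 to 0.867. In the same fit 9 of the 32 genes reached an unadjusted p under 0.05, against 20.1% of all tested genes, and Ssr1 had a log2 fold change of 0.14 (adjusted p = 0.0644, edgeR).

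This order, WT library 4 above all IRE1KO libraries and those above WT libraries 1 to 3, was looked for after the values were seen. It held for 3 of the 32 genes and for 1.39% of all tested genes, and the reverse order for none of the 32 and for 1.7% of all tested genes. Col1a1 and Col1a2, the chains of type I collagen and the main secreted products of such cells, had it too. The other genes of the osteoblast lineage list, Runx2, Sp7, Alpl, Ibsp and Bglap, did not have it. Col1a1 was at 16903, 15462 and 18114 CPM in WT libraries 1 to 3, 23201, 22655, 21916, 23914 and 24834 CPM in IRE1KO libraries 1 to 5 and 31100.3 CPM in WT library 4. Tram1 missed this order narrowly, since WT library 3 was at 176.3 CPM and IRE1KO library 3 at 176.0 CPM. Whether collagen content bears on these genes was not tested.

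**Figure D3:**
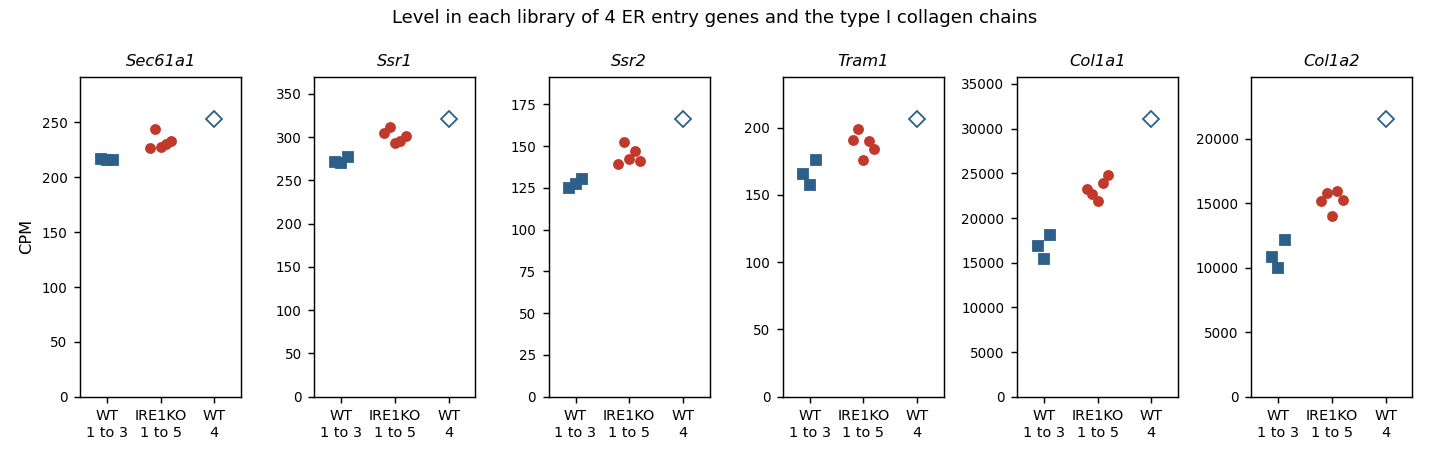
CPM (y axis, from 0) of Sec61a1, Ssr1, Ssr2, Tram1 and the type I collagen genes Col1a1 and Col1a2 in each library, with WT libraries 1 to 3 (filled squares), IRE1KO libraries 1 to 5 (circles) and WT library 4 (open diamond) side by side. Except for Tram1, where 1 pair of libraries overlaps, WT libraries 1 to 3 are lowest and WT library 4 is highest in each panel.

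In signal peptidase, Sec11a and Sec11c are alternative catalytic subunits and Spcs1, Spcs2 and Spcs3 are their partners. Sec11a was at 57.8, 57.4, 56.5, 61.8 and 60.2 CPM in IRE1KO libraries 1 to 5 and 59.0, 56.8, 57.7 and 61.0 CPM in WT libraries 1 to 4. The groups had nearly the same range (log2 fold change 0.0030 ± 0.040 SE, 95% interval -0.087 to 0.093, adjusted p = 0.982, edgeR). Sec11c was at 23.8, 23.7, 21.1, 22.3 and 21.2 CPM in IRE1KO libraries 1 to 5 and 24.9, 23.5, 24.4 and 20.8 CPM in WT libraries 1 to 4, again with overlap (log2 fold change -0.061 ± 0.066 SE, 95% interval -0.21 to 0.087, adjusted p = 0.676, edgeR). Spcs1 was at 119.4, 124.5, 115.8, 130.4 and 112.8 CPM in IRE1KO libraries 1 to 5 and 113.9, 112.7, 115.7 and 113.8 CPM in WT libraries 1 to 4. The WT libraries were within 3 CPM of one another, and IRE1KO library 5 fell within their range while the other 4 IRE1KO libraries were above it (log2 fold change 0.081 ± 0.046 SE, 95% interval -0.023 to 0.18, adjusted p = 0.411, edgeR). Spcs2 and Spcs3 had log2 fold changes of 0.036 (95% interval -0.060 to 0.13) and -0.041 (95% interval -0.16 to 0.074).

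OST exists with the catalytic subunit Stt3a, which works beside the channel, or Stt3b, which can act after entry, and both forms share Rpn1, Rpn2, Ddost, Dad1 and other subunits, while Ostc belongs to the Stt3a form. Stt3a was at 456.7, 467.8, 432.3, 463.7 and 438.9 CPM in IRE1KO libraries 1 to 5 and 435.4, 435.1, 436.6 and 455.3 CPM in WT libraries 1 to 4. Stt3b was at 245.0, 250.7, 240.4, 243.2 and 239.9 CPM in IRE1KO libraries 1 to 5 and 247.8, 253.0, 249.8 and 245.7 CPM in WT libraries 1 to 4. Both overlapped between groups, with log2 fold changes of 0.037 (95% interval -0.054 to 0.13) and -0.031 (95% interval -0.10 to 0.041). Dad1 (ENSMUSG00000022174, chromosome 14, 54235479 to 54254104), a small structural subunit, was at 87.4, 87.0, 84.0, 88.7 and 84.0 CPM in IRE1KO libraries 1 to 5 and 80.8, 82.7, 79.6 and 74.7 CPM in WT libraries 1 to 4. All IRE1KO libraries were above all WT libraries (log2 fold change 0.12 ± 0.039 SE, 95% interval 0.030 to 0.21, adjusted p = 0.200, edgeR). With scaling by total counts alone Dad1 no longer separated the groups.

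Ddost, a subunit needed for the stability of the complex, was at 299.6, 311.8, 304.7, 309.7 and 304.6 CPM in IRE1KO libraries 1 to 5 and 281.9, 312.5, 337.6 and 373.6 CPM in WT libraries 1 to 4. IRE1KO libraries lay within 13 CPM of one another, whereas WT libraries ran from the lowest to the highest value of all 9 (log2 fold change -0.093 ± 0.072 SE, 95% interval -0.26 to 0.069, adjusted p = 0.553, edgeR). This value ran from -0.16 (WT library 1 left out) to -0.022 (WT library 4 left out). Ostc showed the same wide WT range, from 77.8 to 102 CPM against 85.1 to 94.98 CPM in IRE1KO, and a log2 fold change of 0.057 (95% interval -0.12 to 0.23), which ran from 0.0029 (WT library 2 left out) to 0.14 (WT library 4 left out).

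The ribophorins Rpn1 and Rpn2, both shared OST subunits, lay on opposite sides of 0. Rpn1 (ENSMUSG00000030062, chromosome 6, 88084482 to 88105304) was at 283.3, 302.0, 283.0, 292.0 and 295.5 CPM in IRE1KO libraries 1 to 5 and 257.6, 267.1, 280.3 and 287.2 CPM in WT libraries 1 to 4. Rpn2 (ENSMUSG00000027642, chromosome 2, 157279017 to 157326319) was at 460.5, 485.2, 466.2, 470.4 and 472.5 CPM in IRE1KO libraries 1 to 5 and 457.3, 480.8, 512.2 and 523.0 CPM in WT libraries 1 to 4. Each alone overlapped between groups and did not pass (log2 fold change 0.093 ± 0.044 SE, 95% interval -0.0053 to 0.19, adjusted p = 0.323, edgeR for Rpn1 and log2 fold change -0.067 ± 0.048 SE, 95% interval -0.17 to 0.040, adjusted p = 0.516, edgeR for Rpn2). Their ratio, which does not depend on library scaling, separated the groups. There were 0.615, 0.622, 0.607, 0.621 and 0.625 reads of Rpn1 per read of Rpn2 in IRE1KO libraries 1 to 5 and 0.563, 0.556, 0.547 and 0.549 in WT libraries 1 to 4. All 5 IRE1KO ratios were above all 4 WT ratios. How often ratios of other gene pairs separate the groups in this way was not tested. On the log2 scale the ratio was -0.69 ± 0.017 in IRE1KO (SD, n = 5) and -0.85 ± 0.019 in WT (SD, n = 4), a difference of 0.16, larger than the SD of either group (exact permutation test, two-sided, p = 0.0159, the smallest that 126 splits allow). Adjusted over the 8 pairs tested, p was 0.127, so the difference did not pass. With these group sizes a pair that reaches the smallest p alone cannot pass after that adjustment.

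Among the other 7 pairs, the ratio of Stt3a to Stt3b was 1.86, 1.87, 1.80, 1.91 and 1.83 in IRE1KO libraries 1 to 5 and 1.76, 1.72, 1.75 and 1.85 in WT libraries 1 to 4. The higher ratios were in IRE1KO, but WT library 4 fell within the IRE1KO range, and the log2 difference of 0.067 did not pass (exact permutation p = 0.0476, adjusted p = 0.190). The remaining 6 pairs differed by -0.060 to 0.062 on the log2 scale, with exact permutation p-values from 0.381 to 0.968 before adjustment. For Sec11a to Sec11c, Tram1 to Tram2, Sec62 to Sec63, Srpr to Srprb, Srp9 to Srp14 and Srp68 to Srp72, WT library 4 gave the highest ratio of all 9 libraries.

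**Figure D4:**
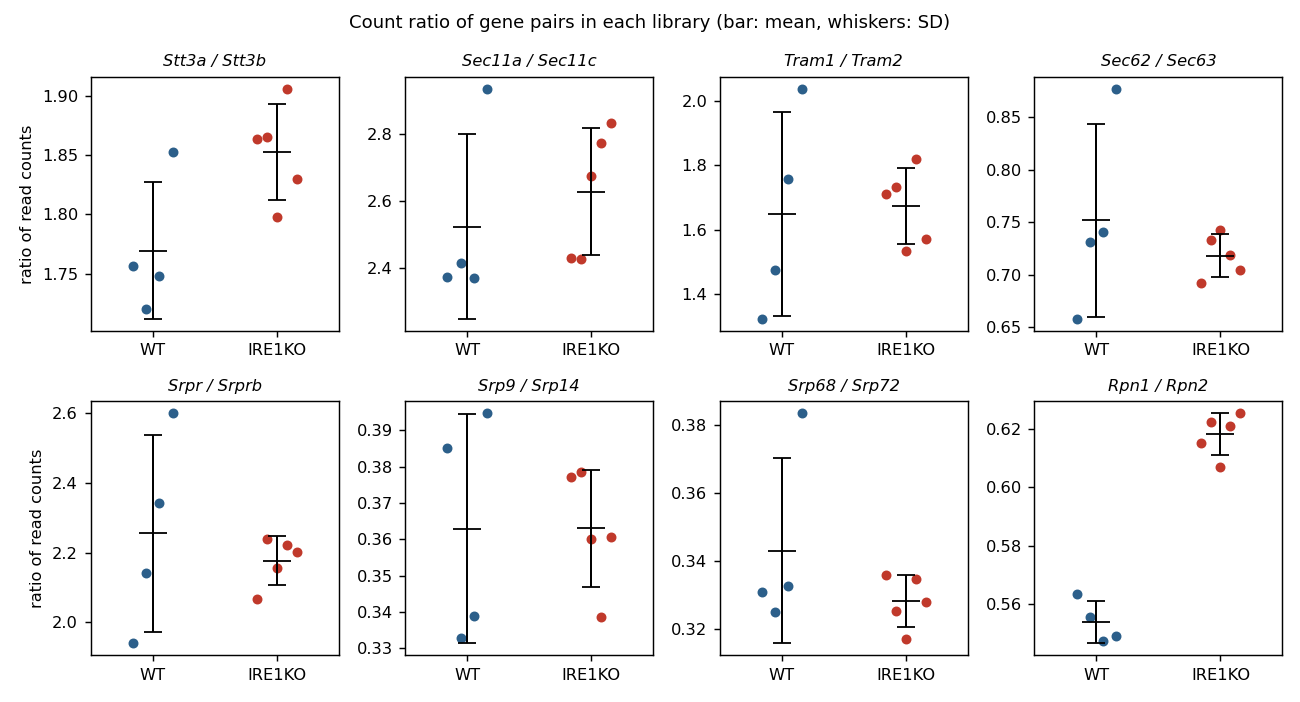
Ratio of read counts of the genes of each pair (y axis, not from 0) in each WT and IRE1KO library (points), with the group mean (bar) and SD (whiskers). The ratio of Rpn1 to Rpn2 is 0.607 to 0.625 in IRE1KO and 0.547 to 0.563 in WT, and the other 7 pairs overlap between groups.

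Levels of different genes were compared per length, as mean CPM over all 9 libraries per kilobase of merged exons, for 31 genes with a gene model in GENCODE M21. Ddost was highest at 149 CPM per kilobase, followed by Rpn2 at 109, Spcs1 at 76.1 and Ssr2 at 75.8. Of the catalytic pairs, Stt3a was at 49.9 and Stt3b at 58.3 CPM per kilobase, while Sec11a was at 12.7 and Sec11c at 3.36. Tram1 was at 57.9 and Tram2 at 16.6. Within the Sec61 channel, Sec61a1 and Sec61b were similar at 34.1 and 30.6 CPM per kilobase, but Sec61g was at 0.839, the lowest of all 31. With the longest transcript as the length, Rpn2 was above Ddost, at 174 and 149 CPM per kilobase, and Stt3a was above Stt3b, at 76.2 and 58.3. By that length Sec61a1 was above Sec61b, at 72.3 and 53.8 CPM per kilobase, and Sec61g was at 1.11.

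Sequences shared with other genes differ greatly between members, which bears on how reads could have been counted. Of the distinct stretches of 50 bases in the coding parts of Sec61g transcripts, 82.9% also occur in transcripts of other annotated genes, chiefly Gm10177. That share was 99.1% for Srprb (chiefly Gm20425), 79.1% for Srp9, 49.3% for Sec61b, 30.6% for Srpr and 20.05% for Sec11a, and 0% for Rpn1, Rpn2, Serp1, Ssr2, Ssr3, Dad1, Stt3a, Stt3b and Ddost. Over whole transcripts, UTRs included, it was 10.98% for Ssr2 (chiefly Rtraf, which had 2429 to 3036 reads per library), 5.14% for Rpn2 (chiefly Mroh8, with 1 to 7 reads), 1.80% for Rpn1, 1.12% for Serp1 and 0% for Ssr3, Dad1, Stt3a, Stt3b and Ddost. Gm20425, counted separately in the table with 1297 to 1578 reads per library, could take reads of Srprb or lend its own. The sources used here do not say how such reads were counted, and levels of Sec61g, Srp9 and Srprb are uncertain. The part of this sharing in their levels was not tested. Srp54a has near-identical copies, Srp54b and Srp54c, which held 0 and 1 reads in all libraries together, against 6270 for Srp54a. The identifier that the table gives to Srp54c is named Srp54a in GENCODE M21, so no position is given for this gene.

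**Figure D5:**
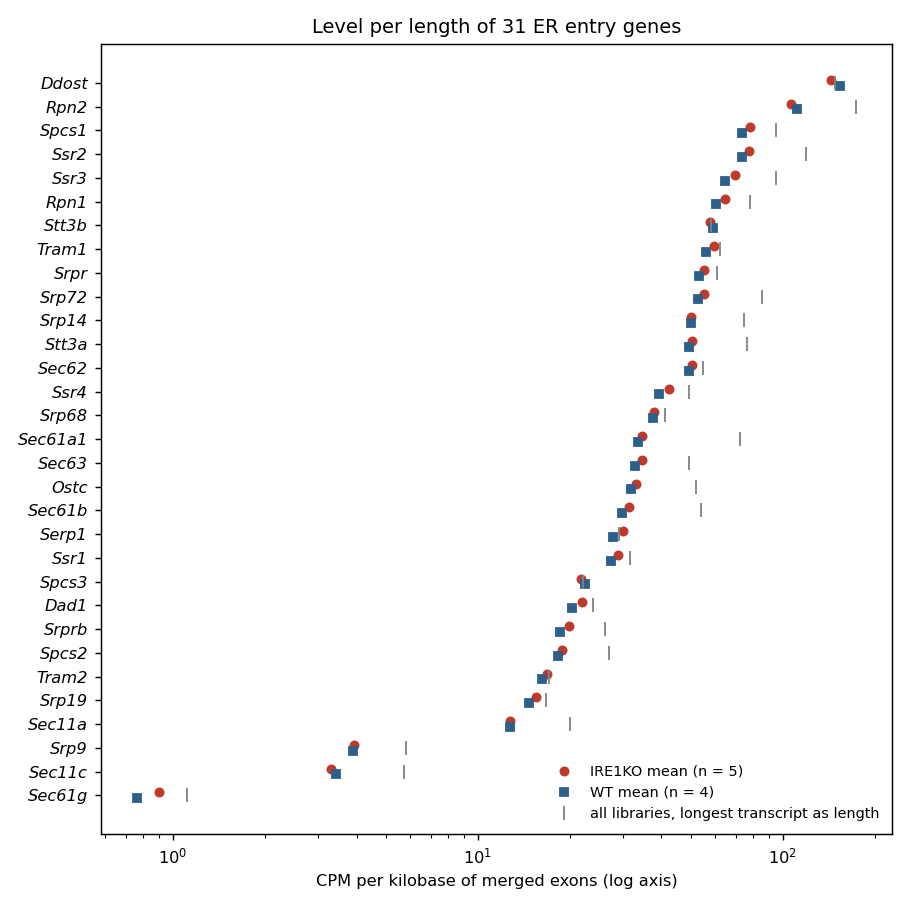
Mean CPM per kilobase of merged exons (x axis, log scale) of 31 genes, ordered by level (y axis), in IRE1KO (circles, n = 5) and WT (squares, n = 4). Grey marks give the mean of all libraries with the longest transcript as the length. The gene with the lowest level is Sec61g and the one with the highest is Ddost, and the group means lie close together except at Sec61g.

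The 16 members that are commonly reported as XBP1s targets, a list made from general knowledge, were centred on a log2 fold change of 0.081 (median), with 13 above 0. The other 16 had a median of 0.045 with 14 above 0. Neither set held a called gene, against 0.634% of all tested genes. Xbp1 itself was at 98.8 to 108 CPM in IRE1KO and 96.1 to 99.8 CPM in WT, a total that does not separate the spliced form.

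Other genes of the same route were taken from 5 lists with 80 genes, of which 79 were matched and tested. None passed in either direction at an adjusted p under 0.05 (edgeR), 13 reached an unadjusted p under 0.05 against 16.5% of all tested genes, and the median log2 fold change was 0.018. Of 34 translocon partners and insertion factors, Tmem208, of the SND targeting route, had the smallest p (log2 fold change 0.17 ± 0.047 SE, adjusted p = 0.155, edgeR), followed by Lrrc59, a ribosome-binding ER protein (log2 fold change 0.25 ± 0.084 SE, adjusted p = 0.205, edgeR). Lrrc59 was at 377, 373, 355, 357 and 364 CPM in IRE1KO libraries 1 to 5 and 363, 321, 284 and 264 CPM in WT libraries 1 to 4, where WT library 1 alone reached the IRE1KO range. Of 5 further OST subunits, the leading genes were Ost4 (log2 fold change 0.14 ± 0.058 SE, adjusted p = 0.271, edgeR) and Tmem258, listed under an older symbol (log2 fold change 0.12 ± 0.058 SE, adjusted p = 0.329, edgeR). Of 23 genes that assemble the dolichol-linked glycan, Alg5 (log2 fold change 0.15 ± 0.053 SE, adjusted p = 0.206, edgeR) and Dpagt1, which starts the assembly (log2 fold change 0.12 ± 0.040 SE, adjusted p = 0.212, edgeR), came first. Of 9 genes of glycan trimming and the lectin cycle, Prkcsh, the beta subunit of glucosidase II, had a log2 fold change of 0.13 ± 0.044 SE. Uggt1, which re-glucosylates misfolded glycoproteins, had -0.11 ± 0.044 SE. Of 8 chaperones and exchange factors at the channel, 6 were below 0, led by Sdf2l1 at -0.15 ± 0.077 SE and Sil1, the exchange factor of BiP, at -0.14 ± 0.074 SE.

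The calls in these lists depended on WT library 1. Without it, 4 of the 79 passed, against 8.63% of all tested genes in that fit: Sec61a2, a second gene for the alpha subunit, Tmem208 and Lrrc59 rose, and Sil1 fell. None of the 32 genes described above passed in it, and 8 of them reached an unadjusted p under 0.05, against 28.3% of all tested genes.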

How the data were processed

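The authors deposited 1 table of raw read counts per gene for 9 libraries, 5 IRE1KO and 4 WT, and its values are whole numbers. STAR, limma and the mm10 build are named, without versions or roles, in the submitters' processing notes; the sources used here name no counting program, annotation or strand setting. Samples were grouped by genotype label. No label says that the pools of pups were independent, so p-values measure the spread between these libraries. Counts were tested with edgeR 4.0.16 (R 4.3.3): low-count filter by expression, TMM scaling, robust quasi-likelihood fit with genotype as the only term, Benjamini-Hochberg adjustment over all 13712 tested genes, threshold 0.05. The test script was first tested on simulated data. The standard error is the log2 fold change divided by the root of F. CPM are reads per 1000000 counted reads in tested genes after TMM scaling, so a summed level is relative to the rest of the library. Pair ratios used raw counts and an exact permutation test over libraries. Positions, exon lengths and stretches of 50 bases came from GENCODE M21 (GRCm38) and promoters from RefSeq (GRCm38.p6). Alternatives were DESeq2 1.42.0, limma 3.58.1 voom, other scalings and filters, each library left out, and the replicate block. The replicate block added a term for the replicate number, which treats libraries of equal number as pairs. No label says that they were pairs. IRE1KO library 5 has no WT library of its number, so it adds nothing to the genotype difference in that fit. The summing of IRE1KO libraries 3 and 5, the most similar pair, was chosen after seeing the data. The variance between them was 1.92 times counting noise, against 4.06 to 10.1 times for the other IRE1KO pairs. The members and lists were chosen with earlier results of these data known. Values in every library are given for the 8 genes with the smallest p and for 10 other subunits chosen by role; for each other pathway list the 2 genes with the smallest p are named; Ssr1, Ssr2, Rpn2 and the order of libraries shared with collagen were singled out after their values were seen.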

Additional observations from a re-analysis of the deposited data

Results flagged for a closer look

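Each of the 32 genes and each of the 8 pair ratios was searched within each genotype for 1 library that lay far from the others (Dixon's criterion at the 95% level). Of 80 groups searched, 8 (10.0%) had such a library, and 6 of the 8 were WT library 4. At this level chance flags about 1 in 20 independent groups. The 80 groups share libraries, and the pair ratios reuse the same genes, so the 10.0% cannot be set against that rate. WT library 4 also lay outside the range of the other WT libraries for 75.6% of all tested genes. The same search over all tested genes is not given here. For Sec61a1, Ssr1 and Ssr2, WT library 4 was the highest of the WT libraries. Sec61a1 was at 253.3 CPM against 215.5 to 216.8 CPM in the other WT libraries. Ssr1 was at 321.1 CPM against 270.6 to 277.5 CPM, and Ssr2 at 166.35 CPM against 125.0 to 130.3 CPM. Stt3a, a catalytic subunit of OST, was at 455.3 CPM against 435.1 to 436.6 CPM. The log2 ratio of Sec11a to Sec11c was 1.55 in WT library 4 and 1.24 to 1.27 in the others, and that of Srp68 to Srp72 was -1.38 against -1.62 to -1.59. In IRE1KO, Serp1 was at 135.75 CPM in library 5 against 138.0 to 138.7 CPM, and Ssr3 at 304.3 CPM in library 2 against 282.3 to 288.4 CPM. Dixon's criterion takes no account of counting noise, and Serp1 had 2598 to 3042 reads per IRE1KO library. The part of counting noise in these gaps was not tested.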

How the results depend on the processing

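Of the 32 genes, none was called except Serp1 with DESeq2 (1 gene) and Ssr2 without WT library 4. Leaving out 1 library at a time gave 0 to 1 called genes, and 3 to 7 genes with separate groups. At fixed scaling, leaving out a library cannot lower that last count, but each of these fits was scaled anew. The 7 came without WT library 4, where 13.2% of all tested genes had separate groups against 6.93% with all libraries. Called genes of the other pathway lists numbered 0 to 4, with 4 without WT library 1. All tested intervals lay within 1.5-fold or all but that of Sec61g did, while the count within 1.2-fold ran from 24 to 31. Over all genes, 87 were called, against 568 with DESeq2, 16 with voom, 46 with total counts only, 45 without a filter, 17 at a mean of at least 5 CPM, 10 with IRE1KO libraries 3 and 5 summed, and 2 (without IRE1KO library 2) to 1192 (without WT library 1). With the replicate block 0 genes were called. Log2 fold changes near 0 turned sign: with total counts only Srp9 (-0.010), Srp14 (-0.019), Srp68 (-0.012) and Sec11a (-0.018), at a mean of at least 5 CPM Srp14 (-0.0039) and Sec11a (-0.0050), and with the replicate block Sec11a (-0.0063). Without 1 library at a time, they ran from -0.017 to 0.034 for Srp9, -0.062 to 0.058 for Srp14, -0.0025 to 0.026 for Srp68 and -0.018 to 0.023 for Sec11a. Pair differences that turned sign ran from -0.060 to 0.15 for Tram1 and Tram2, -0.12 to 0.018 for Sec62 and Sec63, -0.11 to 0.028 for Srpr and Srprb and -0.037 to 0.045 for Srp9 and Srp14. That of Rpn1 and Rpn2 ran from 0.15 to 0.17, with an adjusted exact permutation p of 0.0952 to 0.286. Per length, Sec61g was at 1.11 CPM per kilobase with the longest transcript. The cause of these shifts was not tested. Equal replicate numbers did not consistently pair the libraries: deviations correlated at 0.17, -0.23, -0.18 and 0.50 for numbers 1 to 4. WT libraries 1 and 4 correlated best with the IRE1KO library of their own number, while WT libraries 2 and 3 correlated best with IRE1KO libraries 3 and 4. With the replicate block the difference of Rpn1 and Rpn2 was 0.15 (exact sign-flip test, p = 0.5 after adjustment over the 8 gene pairs). Before adjustment, 4 pairs of libraries cannot give a p below 0.125 in that test. The ratio was higher in IRE1KO than in WT in each of these 4 pairs of libraries. Group overlap has no value of its own under DESeq2 or voom. Sec61g had the fewest reads, 33 to 55 per library.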
